A study of Mus musculus with 17 samples.

Results

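Itaconate and arginine metabolism is described here through 5 enzymes of myeloid cells, Acod1 (also called Irg1), Arg1, Arg2, Nos2 and Odc1, out of 22180 genes measured. They were chosen by gene symbol in the platform annotation, and each was read by 1 probe set with no other symbol. The choice was made with results of these data known, and which values led to it is not recorded. Their values are therefore a description, and the adjusted p-values beside them give each gene's place in a fit over all genes.

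Acod1 lies on chromosome 14 of the mouse assembly GRCm38.p6 and encodes the mitochondrial enzyme that turns cis-aconitate, an intermediate of the citrate cycle, into itaconate. Itaconate inhibits succinate dehydrogenase and is made in quantity by macrophages exposed to bacterial products. Arg1 (chromosome 10) is the cytosolic arginase and a well-known target of interleukin-4 and interleukin-13 (IL-13) in mouse macrophages, while Arg2 (chromosome 12) is the mitochondrial arginase. Both cleave arginine into ornithine and urea. Nos2 (chromosome 11) is the inducible nitric oxide synthase, which uses the same arginine, and Odc1 (chromosome 12) is ornithine decarboxylase, the entry to polyamine synthesis.

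Expression was measured on 17 arrays of eosinophils sorted as CD45+, Siglec-F+ and CCR3+ cells. All mice carried the CC10-IL13 transgene, in which the promoter of a lung club cell gene drives IL-13 once doxycycline (Dox) is fed. They were male and female, aged 6 to 8 weeks, and were either Pirb-/- (knockout, KO), lacking an inhibitory receptor of myeloid cells, or littermate Pirb+/+ (wild type, WT). The title of the series asks how this receptor restrains esophageal eosinophils exposed to IL-13. After 2 weeks of Dox, esophageal eosinophils gave 3 KO and 3 WT arrays and marrow eosinophils gave 3 KO and 3 WT arrays. Marrow without Dox gave 3 KO and 2 WT arrays, and the esophagus was not studied without Dox. The esophagus was digested with collagenase and the marrow was passed through a needle, so tissue and preparation cannot be told apart. The labels do not say if a replicate was 1 animal or a pool, and the p-values cover no spread beyond that between these arrays, which may be technical.

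The promoters of Acod1 and Odc1, the members that differed most and least between the tissues, are shown from the RefSeq promoter table of GRCm38.p6, which held 2 of the 5 members (Arg1, Arg2 and Nos2 are named only). Each runs 5′ to 3′ on the plus strand from 250 bases before to 50 bases after the gene's start. Acod1 covers chr14:103046762-103047061, and its capitals mark a palindromic NF-kB-type motif, GGAANTTCC, and a TATA box, TATAAA. Odc1 covers chr12:17544623-17544922, and its capitals mark GC boxes, GGGCGG on either strand.
Acod1: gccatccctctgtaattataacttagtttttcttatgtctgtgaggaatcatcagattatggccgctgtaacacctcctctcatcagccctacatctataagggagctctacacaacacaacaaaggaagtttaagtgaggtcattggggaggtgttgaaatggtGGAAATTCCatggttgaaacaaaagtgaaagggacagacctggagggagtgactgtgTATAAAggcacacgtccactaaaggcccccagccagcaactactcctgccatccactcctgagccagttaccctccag
Odc1: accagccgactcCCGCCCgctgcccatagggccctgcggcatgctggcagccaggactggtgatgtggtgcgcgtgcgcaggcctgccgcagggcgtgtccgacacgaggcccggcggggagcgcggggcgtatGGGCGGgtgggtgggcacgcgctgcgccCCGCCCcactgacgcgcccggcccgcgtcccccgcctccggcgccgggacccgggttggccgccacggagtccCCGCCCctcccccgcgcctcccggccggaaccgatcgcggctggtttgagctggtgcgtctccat
The Acod1 window held 47.0% G and C with 2 CG pairs, and the Odc1 window held 78.0% with 42 CG pairs, against medians of 52.7% and 7 over all 32851 promoters in the table. In Acod1 the palindrome spans -85 to -77 and the TATA box -28 to -23 relative to the start. The form GGAANTTCC was chosen after the sequence had been read. It occurs in 0.928% of all promoters, TATAAA in 13.6% and GGGCGG, of which Odc1 holds 4, in 35.7%. Neither window held the longer NF-kB consensus (8.46% of promoters), the AP-1 motif TGANTCA (7.81%), the STAT motif TTCNNNGAA (8.30%), the STAT6 motif of TTC and GAA parted by 4 bases (6.95%), the interferon motif of GAAA repeated after 2 bases (3.44%) or the E-box CACGTG (7.15%). All motifs were searched on both strands, and a match is only a description of the letters.

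Every value below is a centred log2 value, which says how far an array lies above or below the middle array for the same probe set. A value of 0 does not mean a low level, and levels of different genes cannot be set against each other. The SD of the values over genes was 0.511 to 0.611 in the esophageal arrays and 0.231 to 0.284 in the marrow arrays, apart from replicate 3 of KO marrow without Dox, at 0.802. That array had a mean correlation across genes of -0.03 with its own group and 0.38 with the WT esophageal arrays. Where a difference of a member given here moved by over 1.5 times without that array, the value without it is given too.

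Of the 5 members, Acod1 differed most between esophageal and marrow eosinophils. In the esophagus with Dox its value was 5.47, 5.05 and 4.79 in the KO replicates and 5.38, 4.45 and 1.54 in the WT replicates. In marrow with Dox it was -0.33, -0.29 and -0.46 in KO, and -0.36, -0.20 and -0.22 in WT. All 6 esophageal arrays were above all 11 marrow arrays, and WT esophageal replicate 3 was far below the other 5.

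The esophagus minus marrow difference in Acod1 was 5.46 ± 0.66 in KO (SE, n = 3 and 3), which is 44.0-fold, with an adjusted p of 0.000184 in limma with Benjamini-Hochberg adjustment. It ranked number 6 from the top of the 22180 genes. In WT the difference was 4.04 ± 0.66, which is 16.5-fold, with an adjusted p of 0.00205, and Acod1 ranked number 16. Both calls held under every alternative tried, including without the WT replicate at 1.54. In bulk RNA of sorted cells, more cells that carry a transcript and more of it per cell cannot be told apart.

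Both arginases were also above marrow with Dox in all 6 esophageal arrays. Arg1 stood at 1.64, 1.31 and 0.37 in the KO esophageal replicates and at 2.59, 0.69 and 1.34 in the WT esophageal replicates. In marrow with Dox Arg1 stood at -0.32, -0.18 and 0.02 in KO and at -0.16, -0.04 and -0.10 in WT. KO esophageal replicate 3 came closest to marrow, and its value lay below the 0.38 of KO marrow replicate 1 without Dox. The difference was 1.27 ± 0.39 in KO (limma adjusted p = 0.0584), which did not pass the threshold of 0.05, and 1.64 ± 0.39 in WT (limma adjusted p = 0.0169), 3.11-fold.

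These Arg1 calls lay close to the threshold. The KO difference passed with quantile normalization (limma adjusted p = 0.0282), with only the compared groups in the fit (0.0439), with array weights (0.00180), without the outlying marrow array (0.0480) and without KO esophageal replicate 3 (1.64, adjusted p = 0.0225). The WT call was lost with only the compared groups in the fit (0.0652) and without replicate 1 of WT marrow with Dox (0.0589).

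Arg2, the mitochondrial arginase, was at 0.71, 1.00 and 0.97 in the KO esophageal replicates and at 0.93, 0.85 and 1.98 in the WT esophageal replicates. In marrow with Dox it was at -0.23, -0.36 and -0.39 in KO and at 0.03, -0.19 and -0.45 in WT. WT esophageal replicate 3, the lowest of the 6 in Acod1, was the highest in Arg2. Arg2 rose by 1.22 ± 0.24 in KO (2.33-fold, limma adjusted p = 0.00558) and by 1.46 ± 0.24 in WT (2.74-fold, limma adjusted p = 0.00240). Both calls held under every alternative tried.

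Nos2, which competes with the arginases for arginine, did not pass the test in either genotype. Its values ran from -0.03 to 0.28 in KO esophagus and from -0.06 to 0.47 in WT esophagus, and overlapped those of marrow with Dox (-0.23 to 0.00245 in KO, -0.14 to -0.00245 in WT). The esophagus minus marrow difference was 0.19 in KO, with a 95% interval of -0.14 to 0.52, and 0.25 in WT, with an interval of -0.08 to 0.57 (limma adjusted p = 0.501 and 0.241). With 3 arrays a group, both intervals spanned negative and positive values and reached 0.52 in KO and 0.57 in WT.

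Odc1, which would take ornithine from the arginases into polyamines, was centred near 0 in both tissues. It ran from -0.25 to 0.13 in KO esophagus and from -0.38 to 0.39 in WT esophagus, against -0.30 to 0.05 in KO marrow and -0.22 to 0.21 in WT marrow with Dox. The differences were -0.04 in KO, with a 95% interval of -0.91 to 0.83, and -0.06 in WT, with an interval of -0.93 to 0.82 (limma adjusted p = 0.970 and 0.925). These intervals are wide, and both signs turned with quantile normalization (0.0414 in KO and 0.0438 in WT).

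Counted as a group, 2 of the 5 members were called higher in KO esophagus than in KO marrow, where 10.5% of all genes were called in either direction and 4.50% were called higher. In WT 3 of the 5 were called higher, against 15.2% of all genes in either direction and 8.11% higher. Without the outlying marrow array 4175 genes were called in KO and 8092 in WT, with 3 of the 5 members in each. No member was called lower, as 6.04% of all genes were in KO and 7.06% in WT. The median difference of the members was 1.22 in KO and 1.46 in WT, against 0.06 and 0.14 over all genes. The arrays of both tissues did not overlap for 3 of the 5 in each genotype, against 44.0% of all genes in KO and 46.1% in WT. The split of WT calls over all genes, 1799 higher and 1567 lower, turned to 803 and 1245 with quantile normalization and to 1181 and 1738 with median centring. Because the members were chosen with results known, these shares describe them and support nothing further.

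**Figure D1:**
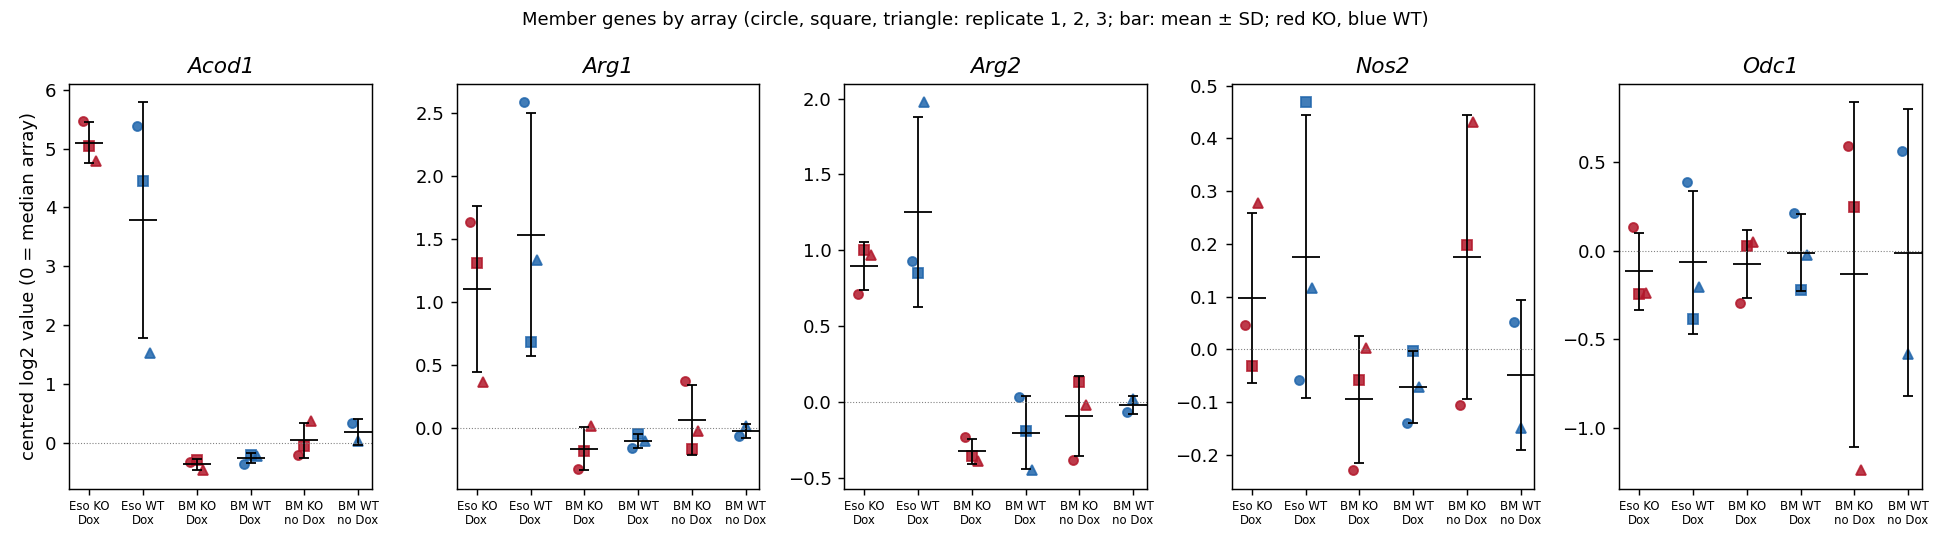
Centred log2 values (vertical axes, 0 is the median array, each panel with its own scale) of the 5 member genes in each array, by group of tissue, genotype and Dox, with KO in red and WT in blue. Horizontal bars are group means and error bars are SD (n = 3, or 2 for WT marrow without Dox). In Acod1 the 3 KO esophageal arrays lie between 4.79 and 5.47, and 1 WT esophageal array lies at 1.54.

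The loss of Pirb moved no member past the test. Among esophageal eosinophils, 0 of the 5 were called between the genotypes, where 0.347% of all genes were called and 3251 genes had an unadjusted p under 0.05. Acod1 averaged 5.10 ± 0.34 in KO and 3.79 ± 2.0 in WT (SD, n = 3 each). Its KO minus WT difference was 1.31 ± 0.66 (SE), with a 95% interval of -0.12 to 2.74 (limma adjusted p = 0.364).

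The Acod1 difference rested on WT esophageal replicate 3. Without that array it was 0.19 (limma adjusted p = 0.772). Without WT esophageal replicate 1 it was 2.11 (limma adjusted p = 0.0728). With array weights, which gave replicates 1 and 2 of the WT esophagus weights of 0.351 and 0.376 and replicate 3 a weight of 1.15, it was 2.31 and passed the threshold (limma adjusted p = 0.0495). The genotype by tissue interaction, which asks whether the tissue difference itself differed between the genotypes, was 1.41 ± 0.94 (limma adjusted p = 0.962). It was called for 0 of the 5 members and for 0.00451% of all genes.

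The other members gave smaller, negative values, where the median over all genes was -0.095 and 30.1% of all genes were higher in KO. Arg1 averaged 1.10 ± 0.66 in KO and 1.54 ± 0.97 in WT esophagus (SD, n = 3 each), a difference of -0.43 with a 95% interval of -1.28 to 0.41 (limma adjusted p = 0.574). Without WT replicate 1 this difference was 0.0937. Arg2 averaged 0.90 ± 0.16 in KO and 1.25 ± 0.63 in WT, a difference of -0.36 with an interval of -0.89 to 0.17 (limma adjusted p = 0.473). Without WT replicate 3 it was 0.00515. Nos2 and Odc1 differed by -0.08 and -0.05 (limma adjusted p = 0.791 and 0.955), and both turned positive with median centring. The KO and WT arrays overlapped for each of the 5 members, while 23.3% of all genes did not overlap.

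No genotype difference passed the test in marrow. With Dox the KO minus WT differences ran from -0.12 (Arg2) to -0.02 (Nos2), and 0 of the 5 were called, where limma called 0% of all genes and left 407 with an unadjusted p under 0.05. Without Dox they ran from -0.15 (Acod1) to 0.22 (Nos2), again with 0 of 5 and 0% of all genes called, and 1809 genes had an unadjusted p under 0.05. Without the outlying KO array these differences were -0.31 for Acod1, 0.0947 for Nos2, -0.11 for Arg2, 0.13 for Arg1 and 0.43 for Odc1, and none passed. The 95% interval for Odc1 in the fit of all arrays was -1.10 to 0.85. Quantile normalization called 37 genes in that last comparison, and no member.

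**Figure D2:**
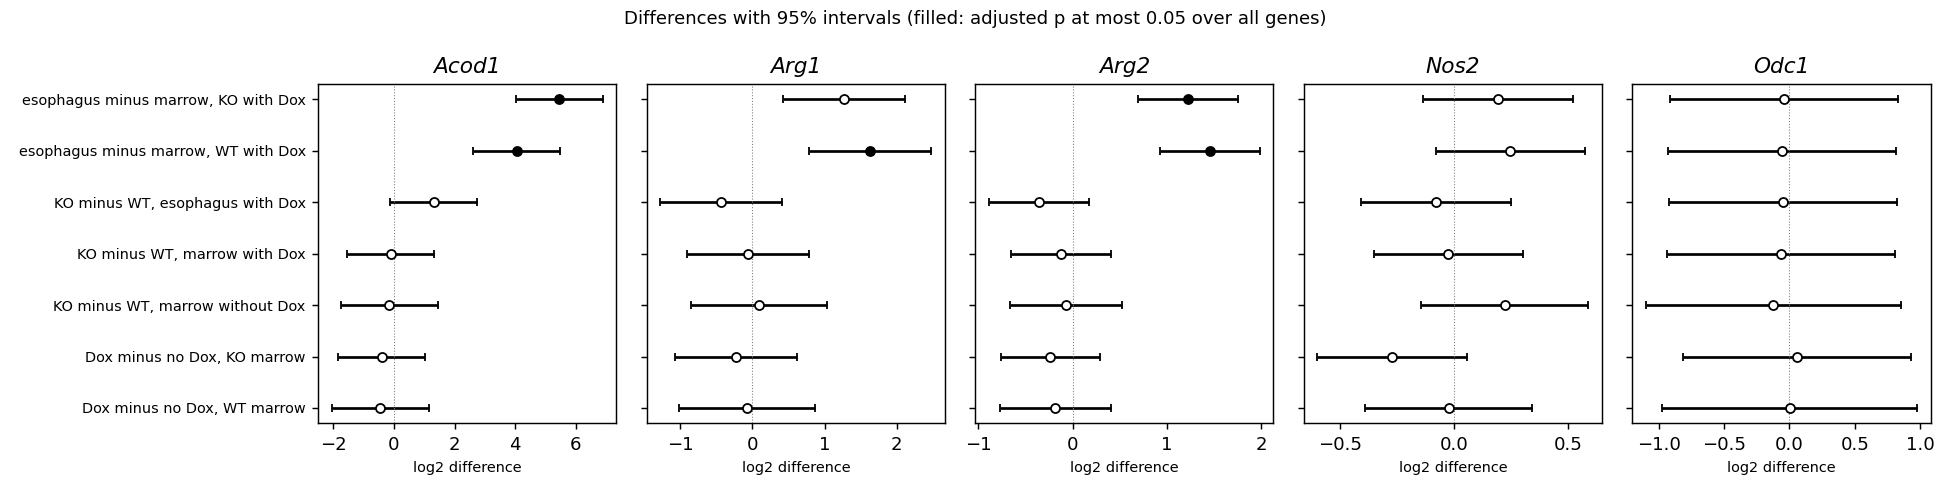
Log2 differences (horizontal axes) of the 5 members in 7 comparisons, each with its 95% interval from the fit, with filled points where the adjusted p over all genes was at most 0.05. Filled points occur only in the esophagus minus marrow comparisons, in Acod1 and Arg2 for both genotypes and in Arg1 for WT.

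Feeding Dox, which switches on the IL-13 transgene, was studied in marrow only. Acod1 was -0.33, -0.29 and -0.46 in KO marrow with Dox, against -0.19, -0.05 and 0.38 without it. In WT marrow it was -0.36, -0.20 and -0.22 with Dox, against 0.35 and 0.04 without it. The Dox arrays lay below the arrays without Dox in both genotypes with no overlap, as 36.5% of all genes did not overlap in KO and 25.3% in WT. The differences, -0.40 ± 0.66 in KO and -0.45 ± 0.74 in WT (SE), did not pass the test (limma adjusted p = 0.657 and 1.00). Without the outlying KO array the KO difference was -0.24 (limma adjusted p = 0.934).

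No other member passed with Dox either. In KO and in WT marrow 0 of the 5 members were called, against 0.0225% of all genes in each, and 6053 and 957 genes had an unadjusted p under 0.05. Odc1 without Dox was 0.59, 0.25 and -1.24 in KO marrow, where the last value is the outlying array, and 0.56 and -0.58 in WT marrow. Its Dox minus no Dox difference in KO was 0.06, and -0.49 without the outlying array. That of Nos2 in KO was -0.27, and -0.14 without the outlying array.

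Of 9 genes for arginine uptake and supply, 0 were called higher and 1 lower in the esophagus than in marrow in KO, where 10.5% of all genes were called. In WT 1 was called higher and 1 lower, where 15.2% of all genes were called. The medians were 0.11 in KO and 0.01 in WT. The gene that fell in both genotypes was Slc7a7, a light chain that exports cationic amino acids, at -1.86 ± 0.33 in KO and -1.56 ± 0.33 in WT (SE, limma adjusted p = 0.00250 and 0.00897). In WT it stood at -0.73, -0.84 and -0.88 in the esophagus and at 1.19, 0.84 and 0.20 in marrow with Dox. Without Dox WT marrow stood between these, at -0.04 and 0.04. Slc7a2, the cationic amino acid transporter that imports arginine in macrophages, was 0.12 ± 0.20 in KO (limma adjusted p = 0.784) and rose by 0.83 ± 0.20 in WT (limma adjusted p = 0.0187). The KO minus WT difference of Slc7a2 in the esophagus, -0.70, did not pass (limma adjusted p = 0.184).

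Downstream of ornithine, 12 polyamine genes were measured, of which 0 were called higher and 1 lower in KO, and 1 higher and 1 lower in WT. These counts lie near the shares over all genes, 10.5% in KO and 15.2% in WT. Eif5a, the translation factor that carries the spermidine-derived amino acid hypusine, fell by 0.68 ± 0.19 in KO and fell by 0.60 ± 0.19 in WT (limma adjusted p = 0.0356 and 0.0496), and the WT call was lost with either other scaling. Dohh, the last enzyme of hypusine formation, was 0.03 in KO and 0.38 ± 0.11 in WT (limma adjusted p = 0.900 and 0.0377). Of 4 genes of proline synthesis and breakdown, 0 were called in either genotype.

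Among 9 genes for nitric oxide and its cofactor tetrahydrobiopterin, 1 was called higher in KO and 2 in WT, and 0 lower, against 4.50% and 8.11% of all genes called higher in KO and WT. Gch1, the first enzyme of tetrahydrobiopterin synthesis, rose by 1.74 ± 0.45 in KO (limma adjusted p = 0.0252) and was at 1.09 ± 0.45 in WT (limma adjusted p = 0.107). The Gch1 call in KO ended with quantile normalization (limma adjusted p = 0.0836). The WT calls were Nos1, the neuronal synthase, at 0.53, and Qdpr, which recycles the cofactor, at 0.32, and both ended with either other scaling and with only the compared groups fitted.

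Of 20 genes for citrate, itaconate and succinate, 4 were called lower in KO esophagus and 5 in WT esophagus, and 0 higher, against 6.04% of all genes called lower in KO and 7.06% in WT. The medians were -0.52 in KO and -0.82 in WT, against 0.06 and 0.14 over all genes. Without the outlying marrow array 10 and 13 were called lower. In that fit 4175 of all 22180 genes were called in KO and 8092 in WT, in either direction. Suclg2, a subunit of the succinyl-CoA ligase that activates succinate or itaconate, fell by 2.08 ± 0.19 in KO and fell by 2.40 ± 0.19 in WT (SE, limma adjusted p = 1.46e-05 and 5.60e-06). Its values were -1.83, -1.49 and -1.57 in KO esophagus and -1.42, -2.30 and -2.16 in WT esophagus, against 0.38, 0.45 and 0.51 in KO marrow and 0.54, 0.22 and 0.55 in WT marrow with Dox.

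Other called genes of that group included the isocitrate dehydrogenases. Idh3a fell by 2.13 ± 0.55 in KO and fell by 1.77 ± 0.55 in WT (limma adjusted p = 0.0256 and 0.0476), and Idh2 by 1.91 ± 0.46 in KO and by 1.46 ± 0.46 in WT (0.0165 and 0.0480). Idh3a consumes isocitrate, which is formed from the same cis-aconitate that Acod1 uses. Suclg1, the partner subunit of Suclg2, fell by 1.00 ± 0.24 in KO (limma adjusted p = 0.0160) and was at -0.38 in WT (limma adjusted p = 0.253). In WT the further calls were Acly, which splits citrate, at -0.85 ± 0.15 (limma adjusted p = 0.00351), and Slc25a11, a mitochondrial oxoglutarate carrier, at -0.93 ± 0.27 (limma adjusted p = 0.0376).

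Of 11 signals and transcription factors known to regulate the members, 5 were called higher and 1 lower in KO, where 10.5% of all genes were called. In WT 4 were called higher and 0 lower, where 15.2% were called, and the medians were 1.45 in KO and 0.27 in WT. Il1b, the cytokine interleukin-1 beta, rose by 4.33 ± 0.42 in KO and by 4.40 ± 0.42 in WT (SE, limma adjusted p = 2.55e-05 and 3.35e-05). Cebpb, a factor that acts on the Arg1 enhancer in mouse macrophages, rose by 1.45 ± 0.24 in KO and by 1.11 ± 0.24 in WT (limma adjusted p = 0.00170 and 0.0104). Hif1a, the hypoxia-inducible factor stabilised by succinate in macrophages, rose by 1.84 ± 0.28 in KO and by 1.03 ± 0.28 in WT (limma adjusted p = 0.000958 and 0.0300).

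Tnf, the cytokine tumor necrosis factor, was chosen after its values were seen. It stood at 2.92, 1.30 and 2.70 in KO esophagus and at -0.24, 0.41 and 1.10 in WT esophagus, against -0.39, -0.0898 and -0.46 in KO marrow and -0.0536, -0.15 and 0.72 in WT marrow with Dox. Tnf rose by 2.62 ± 0.40 in KO (SE, limma adjusted p = 0.000936) and was at 0.25 ± 0.40 in WT (limma adjusted p = 0.647). The KO esophageal arrays lay above the WT esophageal arrays, where 23.3% of all genes did not overlap between these groups. The KO minus WT difference of 1.89 ± 0.40 did not pass (limma adjusted p = 0.0708). It passed without the outlying marrow array (limma adjusted p = 0.0330), and not with quantile normalization, median centring or only the compared groups fitted.

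Stat6, the factor that carries the IL-4 and IL-13 signal, was less certain. It stood at 1.75 ± 0.52 in KO (limma adjusted p = 0.0464) and at 1.28 ± 0.52 in WT (limma adjusted p = 0.10), and the KO call ended with either other scaling. Klf4, which works with Stat6 in macrophages, was called in WT only at 0.44 ± 0.14 (limma adjusted p = 0.0483), against 0.32 ± 0.14 in KO (limma adjusted p = 0.178), and the WT call ended with either other scaling. Myc, which raises Odc1 transcription, fell by 0.80 ± 0.20 in KO (limma adjusted p = 0.0191) and was at -0.57 ± 0.20 in WT (limma adjusted p = 0.0648).

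Itaconate is known to act on the NRF2 and ATF3 stress responses, and 10 genes of these were measured. In each genotype 5 were called higher and 1 lower in the esophagus than in marrow, with medians of 0.52 in KO and 0.51 in WT, and 10.5% and 15.2% of all genes were called in KO and WT. Slc7a11, the cystine importer, rose by 4.77 ± 0.31 in KO and by 4.97 ± 0.31 in WT (limma adjusted p = 6.88e-07 and 5.48e-07). Nfkbiz, the IkB-zeta factor that itaconate derivatives restrain through ATF3, rose by 3.65 ± 0.30 in KO and by 3.11 ± 0.30 in WT (limma adjusted p = 7.10e-06 and 3.86e-05). Atf3 rose by 2.70 ± 0.37 in KO and by 1.59 ± 0.37 in WT (limma adjusted p = 0.000467 and 0.0153).

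Hmox1, heme oxygenase 1 and a classical NRF2 target, went the other way. It stood at -1.72, -1.48 and -1.55 in KO esophagus and at -0.71, -0.01 and -0.43 in WT esophagus, against 1.04, 1.30 and 0.62 in KO marrow and 1.32, 1.49 and 1.37 in WT marrow with Dox. It fell by 2.57 ± 0.24 in KO and fell by 1.78 ± 0.24 in WT (limma adjusted p = 1.80e-05 and 0.000508). The KO esophageal arrays lay below the WT esophageal arrays, where 23.3% of all genes did not overlap between these groups. The KO minus WT difference of -1.20 ± 0.24 lay at the threshold (limma adjusted p = 0.0511). It passed without the outlying marrow array (limma adjusted p = 0.00995), and not with quantile normalization (0.649), median centring (0.0854) or only the compared groups fitted (0.193). Txnrd1, thioredoxin reductase, rose by 1.36 ± 0.32 in KO and by 1.35 ± 0.32 in WT (limma adjusted p = 0.0138 and 0.0153), and Nfe2l2, which encodes NRF2, was at 0.58 in KO (0.132) and rose by 0.96 in WT (0.0151).

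Between the genotypes in the esophagus, 0 genes were called by limma in each of these 7 pathway lists, where 0.347% of all genes were called. Without the outlying marrow array, 763 genes were called in that comparison over all genes, and in the lists 2 polyamine genes and 1 nitric oxide gene were lower in KO, 2 signal genes were higher, and 1 NRF2 and ATF3 gene was higher and 1 lower. Of the 38 esophagus minus marrow calls named for pathway genes, none changed sign and 22 held under all 4 alternatives tried for them, which were quantile normalization, median centring, fitting only the compared groups and leaving out the outlying array. The 16 lost under at least 1 of these were Eif5a, Gch1, Stat6 and Txnrd1 in KO, and Slc7a2, Eif5a, Dohh, Nos1, Qdpr, Idh3a, Idh2, Slc25a11, Hif1a, Klf4, Atf3 and Nfe2l2 in WT. Without the outlying array 5 genes of the nitric oxide list were called higher in WT, 2 of the arginine list higher in WT, 1 polyamine gene higher and 2 lower in KO, 2 polyamine genes higher and 2 lower in WT, and 3 NRF2 and ATF3 genes lower in WT. In that fit 4175 of all 22180 genes were called between the tissues in KO and 8092 in WT, in either direction.

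**Figure D3:**
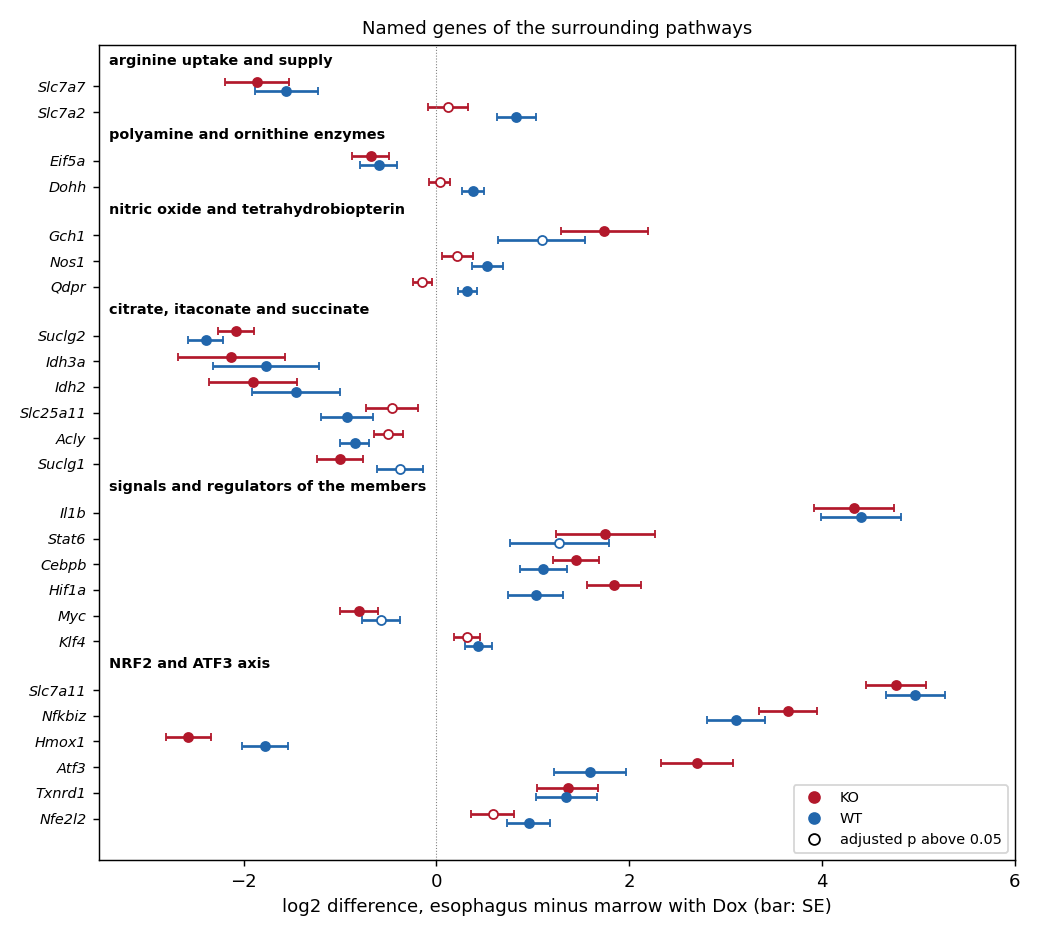
Esophagus minus marrow log2 differences with Dox (horizontal axis, bars are SE) of the named pathway genes, grouped by list, with KO in red and WT in blue and open circles where the adjusted p was above 0.05. Slc7a11 and Il1b lie furthest to the right, at 4.33 to 4.97, and Hmox1 in KO lies furthest to the left, at -2.57, followed by Suclg2 in WT, at -2.40.

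Markers of the labelled cells and of other cells moved between the tissues as well. Of 8 measured eosinophil markers, 3 were called higher and 4 lower in KO esophagus, and 1 higher and 3 lower in WT esophagus. Over all genes, 4.50% were called higher and 6.04% lower in KO, and 8.11% higher and 7.06% lower in WT. Alox15, the 15-lipoxygenase of eosinophils, rose by 3.36 ± 0.59 in KO and by 2.95 ± 0.59 in WT (limma adjusted p = 0.00248 and 0.00697). Epx, eosinophil peroxidase, fell by 3.50 ± 0.41 in both genotypes (limma adjusted p = 0.000135 and 0.000187 in KO and WT). It was not the marker that fell most, as the list ran from -4.91 to 3.36 in KO and from -5.22 to 2.95 in WT. The genes of the sort itself, Siglecf and Ccr3, were 1.14 and 1.02 in KO and 0.32 and 0.64 in WT, of which Siglecf in KO passed (limma adjusted p = 0.000479). Between the genotypes in the esophagus, 1 of the 8 eosinophil markers was called higher in KO and 0 lower. Over all genes 0.347% were called there. The list mean was -0.40 to 0.10 in KO and -1.01 to -0.38 in WT esophagus, and the median difference was 0.59. That call was lost with quantile normalization and with only the compared groups fitted.

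Macrophages and neutrophils are among the other cells known for these enzymes in mice. Of 11 macrophage and monocyte markers, 1 was called higher and 7 lower in KO, where 10.5% of all genes were called. In WT 1 was called higher and 3 lower, where 15.2% were called. The mean of that list was -0.53 to -0.51 in the KO esophageal arrays and -0.40 to 0.12 in the WT esophageal arrays, against 0.41 to 0.94 in KO marrow and 0.58 to 0.65 in WT marrow with Dox. Without Dox it was lower in marrow, at -0.49 to -0.39 in WT and -0.85 to 0.22 in KO, where the lowest is the outlying array. All 11 markers were higher with Dox than without it in marrow, with medians of 0.98 in KO and 1.02 in WT, and 0 were called. The tissue differences of this list are thus against a marrow level that differed with Dox. Mertk fell by 3.06 in KO and fell by 2.94 in WT, and Cd163 by 2.13 in KO and by 1.70 in WT, while Adgre1, which eosinophils also express, rose by 1.68 in KO and by 1.64 in WT.

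Of 12 neutrophil markers, 9 were called lower in KO and 8 in WT, and 1 higher in each, with medians of -2.88 and -3.02. Over all genes, 4.50% were called higher and 6.04% lower in KO, and 8.11% higher and 7.06% lower in WT. The neutrophil marker that was higher was Retnlg. Its difference was 2.75 ± 0.50 in KO and 1.98 ± 0.50 in WT (SE, limma adjusted p = 0.00296 and 0.0211). WT esophageal replicate 3, the low Acod1 array, had a macrophage list mean of -0.31 and a neutrophil list mean of -2.50, within the ranges of the other esophageal arrays. Of 6 fibroblast markers, 2 were called higher in KO and 1 in WT, and of 8 mast cell and basophil markers 4 were called lower in each. All 6 fibroblast markers were higher in each genotype, with medians of 0.51 in KO and 0.48 in WT. Also called higher were 1 of 4 endothelial markers in KO and 1 of 5 dendritic cell markers in each genotype. Of 6 epithelial markers 1 was called higher in KO and 1 lower in WT. Of 3 B cell markers 1 was called lower in KO. Of 5 T cell and 2 erythroid markers 0 were called. Without the outlying marrow array, 5 macrophage and monocyte markers were called lower in WT, and 3 fibroblast markers were called higher in KO and 4 in WT. Also called higher then were 2 dendritic cell markers in each genotype, 2 epithelial and 1 endothelial in WT, and 1 T cell marker in KO. In WT 1 B cell marker was then called lower. In that fit 4175 of all 22180 genes were called in KO and 8092 in WT, in either direction. Centred values cannot say whether a marker was absent, and the part of other cells in the Acod1 and arginase values was not tested.

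**Figure D4:**
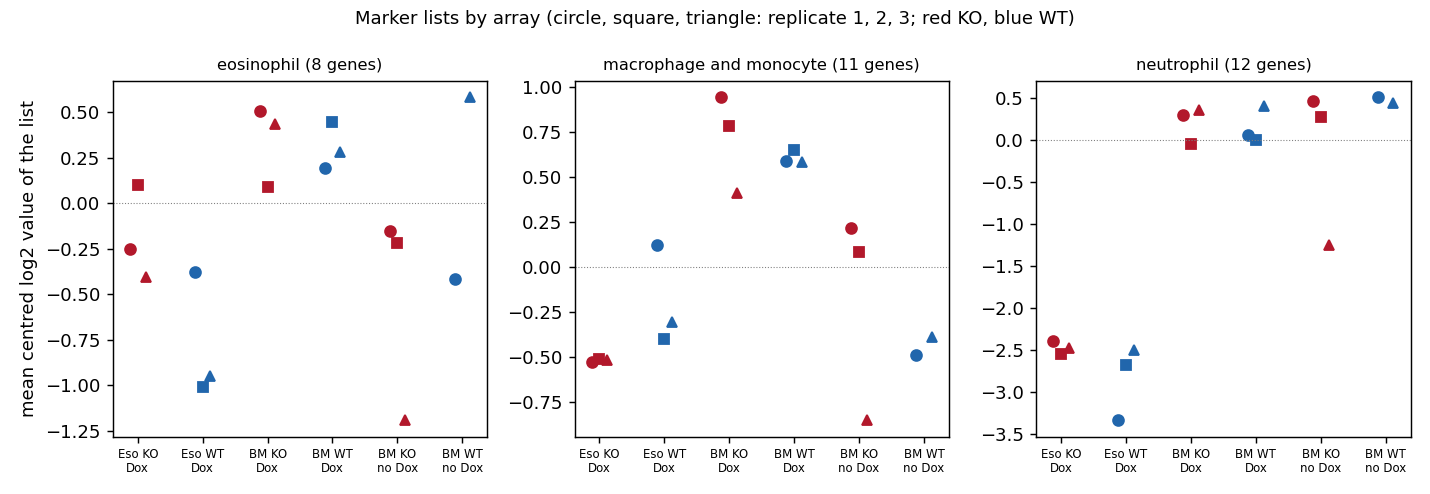
Mean centred log2 value (vertical axes, each with its own scale) over the eosinophil, macrophage and monocyte, and neutrophil marker lists in each array, by group, with KO in red, WT in blue and symbols for the replicate. The neutrophil list lies at -3.34 to -2.39 in the 6 esophageal arrays and at -0.05 to 0.40 in the marrow arrays with Dox.

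The genes most like each member across the 17 arrays were found by Pearson correlation over all genes, as a description of arrays that mostly differ by tissue. For Acod1 they were Samsn1 (r = 0.98), Bcl3 (0.97) and F630111L10Rik (0.97). For Arg1 they were Atp11a (0.95), Aspa (0.94) and Irak2 (0.94), and for Arg2 Ecm1 (0.95), Cyp4f18 (0.95) and Pik3r6 (0.93). For Nos2 they were Snorc (0.94), Foxd4 (0.93) and Ssbp4 (0.92). For Odc1 they were Cops8 (0.83), Nmi (0.82) and Kmt5a (0.81), and these last values were 0.74, 0.63 and 0.79 over 16 arrays without the outlying one. Samsn1, the gene most like Acod1, had group means of 2.34 in KO esophagus and 1.76 in WT esophagus, against -0.19 in KO marrow and -0.15 in WT marrow with Dox.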

How the data were processed

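RNA of sorted mouse eosinophils was amplified, labelled with biotin and hybridised to 17 Affymetrix arrays of 1 colour, per the labels' protocols. Per the submitters' processing notes, Affymetrix Expression Console was used. The sources used here do not give the probe summarization or any scaling between arrays. Values are the log2 values that the authors deposited in the series' value table of 33793 probe sets; the log base is not stated and was taken as 2. The deposited values are centred: the 2 middle values of 97.1% of probe sets were equal and opposite (tolerance 2e-05), putting 0 at the median of 18 arrays, 1 of which (WT marrow without Dox) the series' design text reports as dropped.

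Of the probe sets, 23521 had 1 gene symbol in the platform annotation, 1814 had several and 8458 had none. Symbols were updated through a RefSeq gene table, and probe sets of a gene were averaged, giving 22180 genes. No filter on dim probe sets was applied, because centred values hold no brightness. All 17 arrays entered 1 limma 3.58.1 fit (R 4.3.3) with 6 group means and eBayes, tested on simulated data. P-values were two-sided, with Benjamini-Hochberg adjustment across the 22180 genes in each of 9 contrasts and a threshold of 0.05. Named pathway genes were those at or under the threshold in an esophagus minus marrow contrast or in KO minus WT in the esophagus, up to 6 a list, by the size of the WT esophagus minus marrow difference. The number of arrays limits the precision. The members, lists and tests were chosen with earlier results of these data known. Genes of the lists with no probe set of their own symbol were not analysed here. Alternatives were other scalings, samples, weights, a replicate block, 1 probe set a gene and leaving out each array.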

Additional observations from a re-analysis of the deposited data

How the results depend on the processing

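Refitting the 45 member differences, each under the settings that applied to it, gave 615 pairs of a difference and a setting. Of these pairs 537 kept direction and side of the threshold, 2 lost a call and 6 gained one. The other 70 changed sign, 0 of them among differences that were called. The cause of these shifts was not tested. The 2 lost calls were those of Arg1 in WT given in the results. The filter on dim probe sets was not run, since centred values hold no brightness. The setting with the lowest-number probe set of a gene moved no member, since each has 1. Alternatives for the pathway and marker lists were chosen after seeing the data.

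Counts of called genes moved far more than the members. KO minus WT in the esophagus (77 genes) gave 2 with quantile normalization, 8 with only the compared groups and 858 with array weights, where 1 member, Acod1, was called. KO minus WT in marrow with Dox (0) gave 6 with array weights, and without Dox (0) 37 with quantile normalization, 21 of them higher and 16 lower. Dox minus no Dox in KO (5) gave 233 (117 higher, 116 lower), 0 and 3331 under those 3 settings in the same order. Dox minus no Dox in WT (5) gave 126 (92 higher, 34 lower), 0 and 55, and 3 with median centring. Esophagus minus marrow in KO (2336) gave 4451 with only the compared groups and 6117 with array weights, and in WT (3366) 2048 with quantile normalization and 8210 with array weights. The genotype by tissue interaction (1) gave 0, 5 and 35, and the genotype by Dox interaction (0) gave 3 with array weights. Median centring moved the median of all genes by -0.10 in WT esophagus minus marrow, 0.12 in KO Dox minus no Dox and 0.11 in the genotype by Dox interaction.

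Whether replicate numbers pair the samples could not be settled, and the main fit used no pairing. Same-number arrays of different groups had correlated deviations above 0.1 in 11 of 40 pairs, with a range of -0.0999 to 0.231. Arrays of different numbers were not compared in this way. With a replicate block, KO minus WT gave 47 genes in the esophagus and 1 in marrow with Dox, Dox minus no Dox in WT gave 2, and no member's call changed. Arg1 in Dox minus no Dox in WT turned to 0.00446.

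Leaving out each array gave 22 to 763 genes for KO minus WT in the esophagus, 0 to 2 in marrow with Dox and 0 to 6 without Dox. It gave 0 to 346 for Dox minus no Dox in KO and 0 to 33 in WT. It gave 1538 to 4175 for esophagus minus marrow in KO and 1335 to 8092 in WT, with 2 to 3 members in each, 1 to 34 for the genotype by tissue interaction and 0 to 4 for the genotype by Dox interaction.

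Sign changes of uncalled members were as follows. For KO minus WT in the esophagus, Nos2 gave 0.0272 with quantile normalization and 0.00575 with median centring, and Odc1 gave 0.0349 with median centring and 0.0378 with array weights. Leaving out arrays gave -0.86 to 0.0937 for Arg1, -0.56 to 0.00515 for Arg2, -0.19 to 0.0680 for Nos2 and -0.21 to 0.18 for Odc1. For KO minus WT in marrow with Dox it gave -0.15 to 0.0183 for Arg1, -0.0723 to 0.0435 for Nos2 and -0.17 to 0.0464 for Odc1. Without Dox it gave -0.31 to 0.00890 for Acod1, -0.0691 to 0.20 for Arg1, -0.18 to 0.0779 for Arg2 and -0.70 to 0.45 for Odc1. There array weights gave -0.0527 for Arg1, 0.0666 for Arg2 and 0.29 for Odc1, and quantile normalization 0.39 for Odc1. For Dox minus no Dox, Odc1 gave -0.39 with quantile normalization and -0.36 with array weights in KO and -0.00720 with array weights in WT. Leaving out arrays gave -0.49 to 0.42 for Odc1 in KO, and -0.12 to 0.0782 for Nos2 and -0.57 to 0.57 for Odc1 in WT. For esophagus minus marrow, Odc1 gave 0.0414 in KO and 0.0438 in WT with quantile normalization, and -0.17 to 0.0245 in KO and -0.28 to 0.10 in WT when arrays were left out. For the genotype by tissue interaction, quantile normalization gave 0.0543 for Arg2, 0.0702 for Nos2 and -0.00234 for Odc1, and median centring 0.00964 for Nos2. Leaving out arrays gave -0.79 to 0.16 for Arg1, -0.44 to 0.13 for Arg2, -0.17 to 0.0917 for Nos2 and -0.14 to 0.24 for Odc1. For the genotype by Dox interaction, median centring gave 0.0528 for Arg2, and Odc1 gave -0.46 with quantile normalization and -0.35 with array weights. Leaving out arrays gave -0.11 to 0.21 for Acod1, -0.26 to 0.00701 for Arg1, -0.20 to 0.0643 for Arg2 and -0.51 to 0.63 for Odc1.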
